A study of Mus musculus with 12 samples.

Results

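Interleukin 10 (IL-10) signals through a receptor to the transcription factor STAT3, and the genes that STAT3 and its relative STAT5 switch on include inhibitors that end the signal. The 10 genes described here cover that route in mouse macrophages. They are the cytokine Il10, the receptor chains Il10ra, Il6ra and Il4ra, the transcription factors Stat3 and Stat5a, the signaling inhibitors Socs1, Socs3 and Cish, and the kinase Pim1. They were taken by name out of 43278 gene symbols, and the list was chosen by measured values, since earlier results of these data in all 12 libraries were known when it was drawn up. Their values and their calls in the fit are therefore a description of the chosen genes and support nothing beyond it.

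RNA was measured in thioglycolate-elicited peritoneal macrophages (PMφs) of wild-type C57BL/6J mice, in 4 groups of 3 libraries. The Control group was untreated, the oxLDL group was cultured with 100 µg/ml human oxidized low-density lipoprotein for 24 h, the LPS group was given 10 ng/ml lipopolysaccharide of bacteria, and the oxLDL+LPS group received both. How long LPS was present is not given by the labels of these samples. In all groups the cells were drawn into the peritoneal cavity with 1 ml of 4% thioglycolate, collected after 4 days and left to adhere for 18 h, and the study's methods describe pools of cells from littermates of both sexes, split into the 4 treatments. Values are normalized counts, which are exonic reads per gene that the authors divided by 1 factor per library and rounded.

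The libraries held 16.7 to 26.2 M reads as implied by the spacing of the values. Macrophage markers were high in every library, with a sum over 8 genes of 231967 to 347950, and of the T cell markers Cd3e, Cd3d and Cd3g no library held more than 2. Other lists moved with LPS. The T cell list summed to 320 to 1127 without and 96 to 276 with LPS, as Cd28 went from 306 to 1102 down to 14 to 47 while Lck went up from 11 to 26 to 79 to 234. The eosinophil list summed to 184 to 386 without and 59 to 125 with LPS, most of it Siglecf, with Epx at most 1 and Prg2 at 0. The neutrophil list summed to 31 to 49 and 79 to 258, most of it S100a8, with S100a9 at most 1 and Ly6g at 0 in all libraries. Their part in the results was not tested, and in bulk RNA fewer cells of a type and less RNA per cell cannot be told apart. The summed markers of mesothelial cells and fibroblasts differed between replicate numbers, from 2851 to 3475 in the 4 libraries of number 3 and from 10347 to 17501 in those of number 1. The number in the label did not name the same pool of cells in every group. In the libraries of number 1 without LPS, the Y-linked Ddx3y stood at 1156 and 1132 and the X-linked Xist at 1 and 2, whereas in those of number 1 with LPS Ddx3y stood at 459 and 439 and Xist at 6331 and 3812. Differences between LPS and no LPS are given with and without number 1 for 8 of the 10 genes, as Il10 and Cish could not be tested without it. For the further lists the counts of called genes are given both ways. Ratios of pooled reads and values per kilobase are given with number 1 only. The labels do not say whether the numbers are separate animals, so p-values measure the spread between these cultures.

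As background, cytokine receptors of this kind carry Janus kinases (JAKs), which phosphorylate STAT proteins so that these enter the nucleus. IL-10 and IL-6 act mainly through STAT3, IL-4 through STAT6, and GM-CSF, the product of Csf2, through STAT5. The SOCS proteins are made in response and block receptors or JAKs, and in macrophages IL-10 is known as a brake on the response to LPS while SOCS3 restrains the receptors that use gp130 but not the IL-10 receptor.

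LPS changed the level of all 10 genes in both media, 9 upward and 1 downward. With limma over 13023 genes and a Benjamini-Hochberg adjusted p under 0.1, LPS against Control called 9 of the 10 genes higher and Il6ra lower. That fit called 61.7% of all genes tested, 31.4% as higher and 30.3% as lower. In PMφs with oxLDL, LPS again called 9 higher and Il6ra lower, against a background of 54.5%, with 28.2% higher and 26.3% lower. In both fits Il10 passed the filter only through the libraries with LPS, so its calls as higher are a description. Without LPS, Cish reached 10 in number 1 alone. The median of the 10 differences on the log2 scale was 2.64 without oxLDL and 2.01 with it, while the medians over all genes tested were -0.001 and -0.0176.

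**Figure D1:**
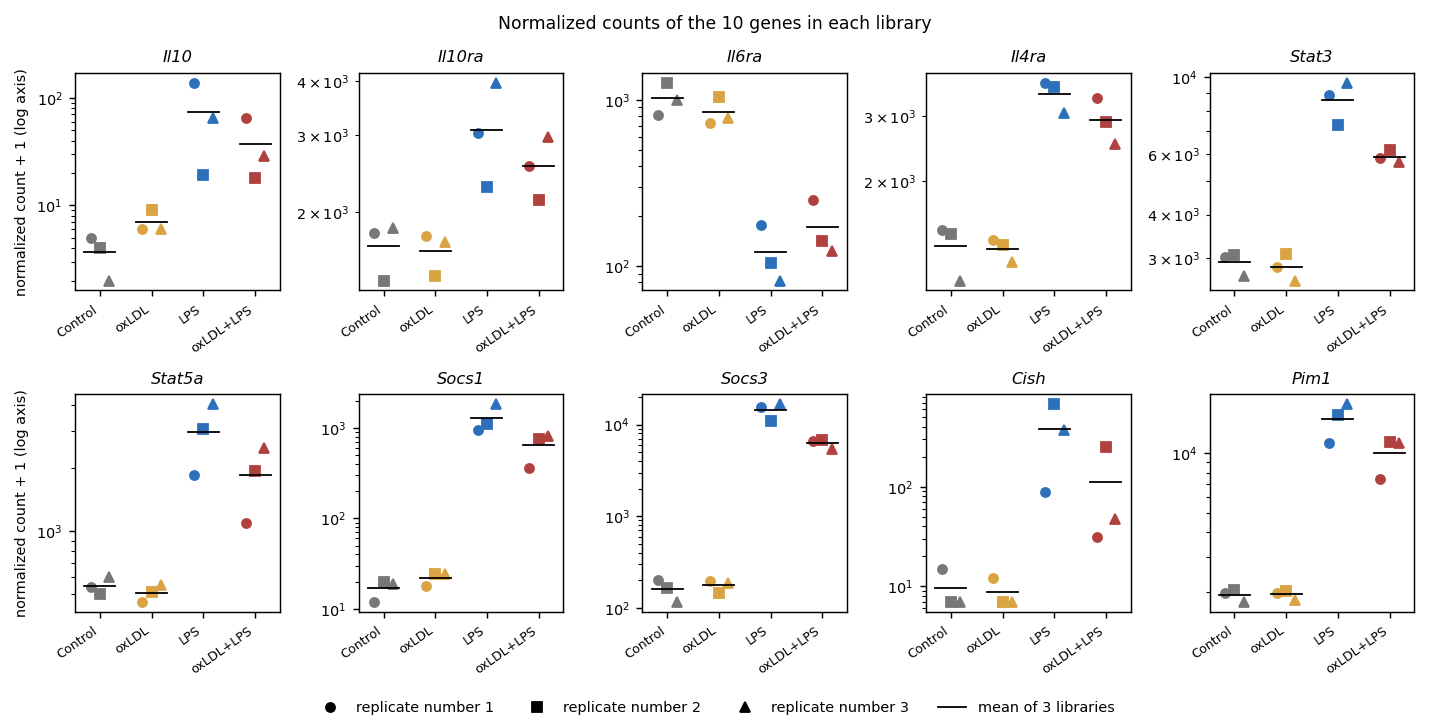
Normalized count plus 1 (log axis) of each of the 10 genes in the 12 libraries, by group. Symbols give the replicate number and black lines the mean of 3 libraries. Il6ra was lower in the 6 libraries with LPS than in the 6 without, and the other 9 genes were higher.

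Socs3, the inhibitor known to restrain gp130 receptors, had the largest difference due to LPS, with Socs1 within the error of it. It stood at 201, 164 and 116 normalized counts in Control, 194, 146 and 186 in oxLDL, 15661, 11034 and 16698 in LPS, and 6653, 6834 and 5467 in oxLDL+LPS. The 4 groups thus formed 3 levels, and the LPS and oxLDL+LPS ranges did not meet. The LPS mean was 90.2 times the Control mean and the difference was 6.50 ± 0.23 (SE, n = 3 per group) on the log2(value + 1) scale. With oxLDL it was 5.17 ± 0.14, and the mean 36.0 times as high.

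Socs1, an inhibitor of JAKs that also restrains the response to interferons, was low before LPS. Its values were 11, 19 and 18 in Control, 17, 23 and 23 in oxLDL, 951, 1103 and 1831 in LPS, and 364, 762 and 810 in oxLDL+LPS. Each oxLDL+LPS library lay below each LPS library. The difference due to LPS was 6.23 ± 0.30 (SE, n = 3 per group) without oxLDL and 4.80 ± 0.32 with it on the log2 scale. Pooled reads gave a ratio of 78.6 (95% interval 60.3 to 104, counting error only) for LPS to Control and of 30 (23.7 to 38.6) for oxLDL+LPS to oxLDL.

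Cish encodes CIS, the SOCS protein known as a target and inhibitor of STAT5 signaling. It was at 14, 6 and 6 in Control, 11, 6 and 6 in oxLDL, 87, 676 and 374 in LPS, and 30, 253 and 46 in oxLDL+LPS. It varied widely between replicates with LPS, with an LPS mean of 379 ± 294.5 (SD, n = 3). The oxLDL+LPS mean was 110 ± 124 and overlapped with LPS. The difference due to LPS was 4.96 ± 0.71 (SE, n = 3 per group) without and 3.10 ± 0.75 with oxLDL on the log2 scale. The ratios of pooled reads were 45.3 (31.7 to 67.0) and 14.3 (9.52 to 22.5), intervals that hold counting error only and not the spread between cultures.

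The promoters of these inhibitors are shown because the STAT site is the known entry point of the pathway. The sequences are from RefSeq on GRCm38.p6, in windows of 300 bases from 250 before to 50 after the start site. A window was at hand for 8 of the 10 genes, 10 windows in all. Capitals mark TTCNNNGAA, the site that STAT3 and STAT5 can bind, in Cish and Socs3, and 2 overlapping copies of GAAANNGAAA, the site of interferon regulatory factors, in Socs1.
Cish, chr9:107296656-107296681, plus strand: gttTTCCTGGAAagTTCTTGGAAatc
Socs3, chr11:117969487-117969545, minus strand: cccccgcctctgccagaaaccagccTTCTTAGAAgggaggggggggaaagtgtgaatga
Socs1, chr16:10785584-10785639, minus strand: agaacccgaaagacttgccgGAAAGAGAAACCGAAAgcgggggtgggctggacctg
On both strands, TTCNNNGAA was found in the windows of 2 of the 8 genes and in 8.30% of 32851 windows of all genes. GAAANNGAAA was found in 1 of the 8 and in 3.44% of all windows, and TTCNNNNGAA and TGACGTCA in none of the 8 and in 6.95% and 1.79%. The NF-κB motif was matched in Il4ra and Stat5a and in 8.46% of all windows. The 2 copies in Cish start at base 1 and base 12 after the start site and the copy in Socs3 starts at base -154. These matches are a description of the letters, and binding was not measured.

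Pim1, a kinase whose gene is switched on by STAT3 and STAT5, was already abundant in Control. It stood at 1988, 2045 and 1794 in Control, 1992, 2029 and 1829 in oxLDL, 11306, 15594 and 17674 in LPS, and 7454, 11353 and 11286 in oxLDL+LPS. The mean of oxLDL+LPS was 67.5% of that of LPS, with a small overlap, as 1 LPS library at 11306 lay below 1 oxLDL+LPS library at 11353. The difference due to LPS was 2.91 ± 0.16 without and 2.34 ± 0.17 with oxLDL (SE, n = 3 per group).

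Of the transcription factors, Stat5a rose further than Stat3. Stat5a was at 538, 502 and 602 in Control, 459, 509 and 554 in oxLDL, 1856, 3046 and 4019 in LPS, and 1092, 1940 and 2479 in oxLDL+LPS, a difference due to LPS of 2.37 ± 0.25 without and 1.78 ± 0.28 with oxLDL on the log2 scale. Its LPS and oxLDL+LPS ranges overlapped. Stat3 was at 3012, 3057 and 2659 in Control, 2813, 3084 and 2576 in oxLDL, 8899, 7256 and 9611 in LPS, and 5819, 6170 and 5683 in oxLDL+LPS. For Stat3 the LPS and oxLDL+LPS ranges were apart, with differences due to LPS of 1.55 ± 0.13 and 1.06 ± 0.09 (SE, n = 3 per group). Stat5a (chr11:100859351-100885169, plus strand) and Stat3 (chr11:100885098-100939540, minus strand) are neighbours in GRCm38 whose exons share 72 bases at their ends. No source used here gives the strand setting of the counting, so reads in those bases cannot be assigned with certainty.

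Il10 itself stayed low. It was at 4, 3 and 1 in Control, 5, 8 and 5 in oxLDL, 136, 18 and 64 in LPS, and 64, 17 and 28 in oxLDL+LPS. Every library with LPS was above every library without, but the LPS values spread from 18 to 136 and the oxLDL+LPS values fell inside or just under that range. LPS gave a difference of 4.02 ± 0.73 (SE, n = 3 per group) in PMφs without and 2.24 ± 0.51 in those with oxLDL. Pooled over libraries, Control held 10 reads and LPS 191, a ratio of 24.9 (95% interval 13.2 to 52.8), and oxLDL held 20 and oxLDL+LPS 99, a ratio of 6.14 (3.77 to 10.5). Both intervals hold counting error only and not the spread between cultures.

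The receptor chains moved in opposite directions. Il6ra, the IL-6 binding chain, was the one listed gene that fell, from 814, 1259 and 1001 in Control and 721, 1043 and 773 in oxLDL to 175, 104 and 81 in LPS and 248, 140 and 122 in oxLDL+LPS. The LPS mean was 11.7% of the Control mean and the oxLDL+LPS mean 20.1% of the oxLDL mean, which are log2 differences of -3.14 ± 0.29 and -2.36 ± 0.28 (SE, n = 3 per group).

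Il4ra, the chain shared by the IL-4 and IL-13 receptors, was at 1466, 1431 and 1066 in Control, 1376, 1332 and 1195 in oxLDL, 3696, 3603 and 3060 in LPS, and 3372, 2902 and 2523 in oxLDL+LPS. Its difference due to LPS was 1.40 ± 0.14 without and 1.16 ± 0.12 with oxLDL. Il10ra, the IL-10 binding chain, was at 1785, 1388 and 1836 in Control, 1756, 1419 and 1707 in oxLDL, 3041, 2281 and 3961 in LPS, and 2547, 2133 and 2973 in oxLDL+LPS. That is 0.86 ± 0.20 and 0.64 ± 0.14 on the log2 scale (SE, n = 3 per group), the smallest LPS difference of the 10, and its call is the one that depended on how libraries were scaled. The sum of normalized counts was 17152972 to 17709731 in the libraries without LPS and 22071853 to 26384551 in those with LPS. With values scaled to equal library sums the Il10ra difference was 0.38 (adjusted p = 0.11, limma) without oxLDL and 0.25 (adjusted p = 0.16) with it, and with quantile normalization 0.27 (adjusted p = 0.17) with oxLDL.

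**Figure D2:**
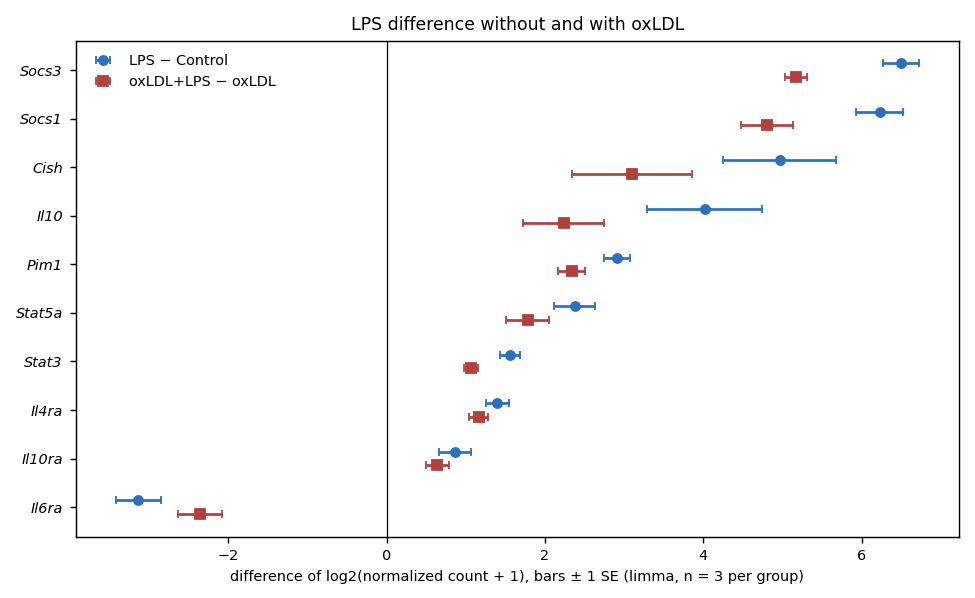
Difference of log2(normalized count + 1) due to LPS in PMφs without oxLDL (blue circles) and with oxLDL (red squares), with bars of 1 SE from limma. Each of the 10 genes lay nearer to 0 with oxLDL, from Socs3 at 6.50 and 5.17 to Il6ra at -3.14 and -2.36. The share of all genes that did so was not computed. The unblocked interaction called none of the 10 genes. The 2 sets share no library.

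Leaving out number 1 changed no direction. Without it, 8 of the 10 genes passed the filter in these comparisons and all 8 were called in both, with Il10ra at 0.91 and 0.69 and Il6ra at -3.60 and -2.77 on the log2 scale. Il10 and Cish did not pass the filter there, as fewer than 3 of the remaining libraries reached 10.

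Per kilobase of merged exon, the order of the genes was reset by LPS. In Control, Pim1 led with a mean of 578 normalized counts per kb, followed by Il10ra at 477, Stat3 at 305, Il4ra at 220, Il6ra at 119, Stat5a at 76.7, Socs3 at 55.5, Socs1 at 5.50, Il10 at 2.04 and Cish at 1.35. Only Il10 and Cish, the last of that order, overlapped in range. The exon lengths merge every transcript of GENCODE M21, 6419 bases for Cish. The study's methods name an earlier GENCODE release for the counts, so these places depend on the annotation. In LPS, Socs3 at 5003 and Pim1 at 4419 per kb overlapped at the top, then came Stat3 at 901.5 with Il10ra at 884.6, Il4ra at 575, Socs1 at 445, Stat5a at 417, Cish at 59.0, Il10 at 55.5 and Il6ra at 13.9. There the ranges of Stat3 and Il10ra overlapped. So did those of Il4ra, Socs1 and Stat5a with one another, and those of Cish, Il10 and Il6ra with one another. In oxLDL+LPS, Pim1 at 2984 and Socs3 at 2185 overlapped. Il6ra stood at place 5 of 10 in Control and at place 10 with LPS alone.

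The question of whether oxLDL changed the genes without LPS was answered by small differences. limma called 0 of 12751 genes between oxLDL and Control (0%), with 381 at an unadjusted p under 0.05. Of the 10 genes, 8 passed the filter, and none of the 8 was called. Their log2 differences ran from -0.27 ± 0.19 for Il6ra to 0.40 ± 0.31 for Socs1, with Stat3 at -0.04 ± 0.09 and Pim1 at 0.01 ± 0.08 (SE, n = 3 per group). Il10 and Cish were too low to be tested, and Il10 was at 5 to 8 with oxLDL and at 1 to 4 in Control. With the replicate number as a block, which called 4.71% of genes, Il6ra was called at -0.27 (limma, adjusted p = 0.024), as it was lower in each number, by 0.17, 0.27 and 0.37. That call was lost without number 2.

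In PMφs given LPS, the values of 9 genes were lower with oxLDL than without it, and those of Il6ra higher. The 9 were lower in oxLDL+LPS than in LPS in all 3 numbers, where 24.4% of all genes tested were lower in all 3. Stat3, Socs1 and Socs3 had every oxLDL+LPS value below every LPS value, and 6.39% of all genes did. The largest differences were in Cish, by -1.51, -1.41 and -3.00 on the log2 scale in numbers 1, 2 and 3, in Socs3, by -1.24, -0.69 and -1.61, and in Socs1, by -1.38, -0.53 and -1.18. Il6ra was higher by 0.50, 0.43 and 0.59. As levels, the mean with oxLDL was 28.9% of that with LPS alone for Cish, 43.7% for Socs3, 49.8% for Socs1, 50% for Il10, 61.8% for Stat5a, 67.5% for Pim1, 68.6% for Stat3, 82.4% for Il10ra, 84.9% for Il4ra and 142% for Il6ra.

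Most of these differences passed the threshold only in fits with the replicate block. Unblocked, limma called 0 of 12786 genes (0%), with 890 at an unadjusted p under 0.05, and none of the 10 genes. An unblocked fit of all 12 libraries called 29 genes, of which Socs3 was the one listed (limma, adjusted p = 0.0989). With the replicate number as a block it called 4.42% of genes higher and 8.74% lower, and of the 10 genes it called Il6ra higher and 8 lower. Il10 was not called (-0.77, limma with the block, adjusted p = 0.105), and its number 2 held 18 and 17. The blocked calls rested on which number was kept. Without number 3 the block called 0 genes and without number 1 it called 71, among them Stat5a, Socs1, Socs3 and Cish. Without number 2, which had the smallest difference for most of the genes, it called 2945 genes and 9 of the 10, Il4ra excepted. In that last fit limma took the spread of every gene from the trend over all genes, with 1 residual degree of freedom, so its count supports no call.

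**Figure D3:**
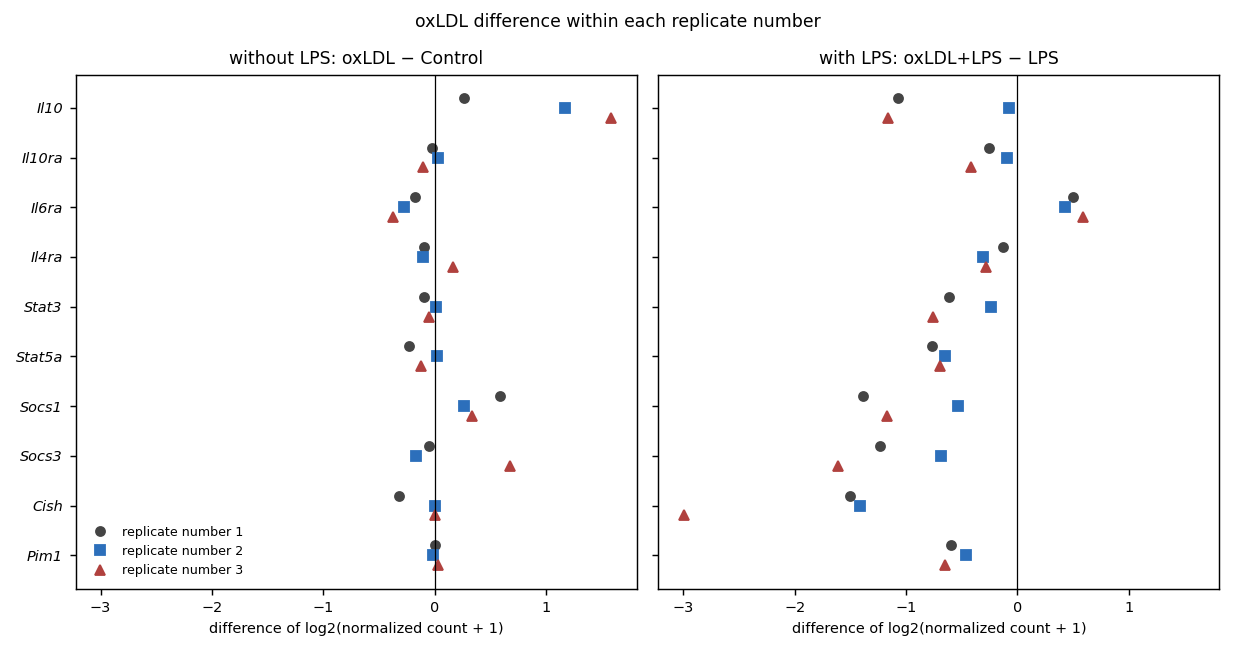
Difference of log2(normalized count + 1) between libraries of the same replicate number, for oxLDL minus Control (left) and oxLDL+LPS minus LPS (right). Without LPS most points sat near 0. Among those farther off were Il10 at counts of 1 to 8, Socs1 at 0.26 to 0.59, Socs3 in number 3 at 0.68 and Il6ra in number 3 at -0.37. With LPS, 9 genes lay below 0 in all 3 numbers and Il6ra above.

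Whether the effect of oxLDL differed between PMφs with and without LPS was tested as an interaction over 12 libraries. limma called 0 of 13482 genes (0%), with 418 at an unadjusted p under 0.05. A block on replicate number within each LPS state, chosen after the sex-linked genes were seen, called 0.408% of genes higher and 0.682% lower, and 6 of the 10 genes were among them. They were Il6ra at 0.78, Stat5a at -0.59, Socs1 at -1.43, Socs3 at -1.33, Cish at -1.86 and Pim1 at -0.58 on the log2 scale. None of these was called when number 1 or number 3 was left out, and without number 2 the same fit called 763 genes and 8 of the 10.

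The other members of the families are given beside the listed genes. The SOCS genes outside the list numbered 5, of which LPS against Control called 2 higher and 2 lower, shares near the 31.4% and 30.3% of all genes, and 2 higher and 1 lower without number 1. Socs2, an inhibitor of growth hormone signaling, rose by 2.25 ± 0.50 and Socs7 by 0.74 ± 0.12 on the log2 scale, while Socs6 fell by 1.27 ± 0.11 and Socs4 fell by 0.27 ± 0.10 (SE, n = 3 per group). Socs5 was at -0.18 ± 0.11. Of the other STAT genes, Stat2, which carries the interferon response, was called higher at 4.49 ± 0.14 and Stat4 at 2.33 ± 0.28. Stat5b, the close relative of Stat5a, was at 0.24 ± 0.19 and Stat6, the STAT of IL-4, at -0.17 ± 0.14, and neither was called. Of 13023 genes, LPS against Control called 8059 with quantile normalization, 40.2% of them higher, and 9410 with equal library sums, 23.5% of them higher. Without number 1 it called 6549 genes, 51.8% of them higher. Counts under those settings, here and below, stand beside these shares. The median of all genes moved to -0.14 with quantile normalization and to -0.48 with equal library sums on the log2 scale. The signs of the other SOCS genes held under both, and with both Socs5 was called lower too, while Stat5b went to -0.08 and -0.24, Stat6 was called lower at -0.75 and -0.65, and Stat2 and Stat4 stayed called higher.

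All 4 Janus kinases were called higher with LPS, beside 31.4% of all genes, also without number 1. With quantile normalization and with equal library sums 3 of the 4 were called higher. Jak2, the kinase of the GM-CSF receptor, led with 3.93 ± 0.14 on the log2 scale. Jak2 was at 985 to 1073 in Control, 13079 to 19081 in LPS and 9502 to 13596 in oxLDL+LPS. Of the PIM kinases, Pim3 was at 1.89 ± 0.20 and Pim2 at 0.43 ± 0.19 (SE, n = 3 per group), which went to -0.05 with equal library sums, and without number 1 only 1 of these 2 was called. Of the chains that partner the listed receptors, Il6st, which encodes gp130, fell by 1.04 ± 0.10 with LPS, and Il10rb, the second chain of the IL-10 receptor, was at 0.12 ± 0.17 and at -0.44 with quantile normalization and -0.37 with equal library sums.

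**Figure D4:**
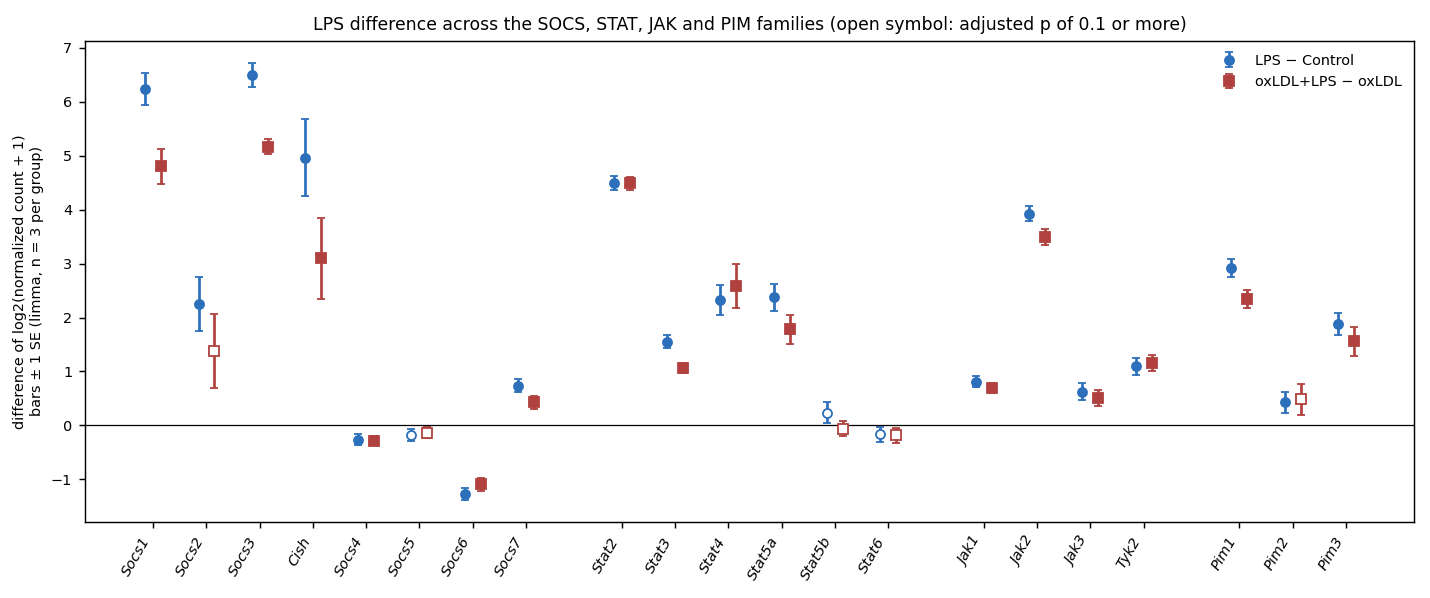
Difference of log2(normalized count + 1) due to LPS across the SOCS, STAT, JAK and PIM families, without (circles) and with oxLDL (squares), bars of 1 SE from limma. Filled symbols passed an adjusted p under 0.1. Socs1, Socs3 and Cish stood at the top of the SOCS genes, and Stat2 above Stat3, Stat5a and Stat5b.

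The stimulus side of the pathway was represented by 14 ligand genes. Of the 7 tested, LPS against Control called 5 higher and 1 lower, beside 31.4% and 30.3% of all genes. Il6 passed the filter only through the libraries with LPS. Without number 1, LPS called 4 higher and none lower of 5 tested, and Il6 and Csf3 did not pass the filter. Il6 went from at most 2 in Control to 2135, 9776 and 14906 in LPS and 261, 4786 and 2683 in oxLDL+LPS. Il27, a cytokine subunit, went from 13 to 28 in Control to 3674, 6497 and 12035, and was at 1148, 4731 and 5018 with oxLDL and LPS. In oxLDL+LPS against LPS the unblocked fit called none of 8 tested ligands. The blocked fit, which called 8.74% of all genes lower and 0 genes without number 3, called 6 of them lower, among them Lif at -1.49, Il6 at -2.18 and Osm at -1.13 on the log2 scale.

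Among 12 receptors of the IL-10 and gp130 families, 9 were tested and LPS called 3 higher and 2 lower, shares near those of all genes. The counts were 3 and 3 with quantile normalization, 2 and 4 with equal library sums, and 2 and 1 without number 1. They include Csf3r, the receptor of G-CSF, at 1.81 ± 0.17 and Il20rb at 2.66 ± 0.19 on the log2 scale. Of 9 receptors that use the common gamma or beta chain or bind IL-13, 4 were called higher and 1 lower, beside 31.4% and 30.3% of all genes. Among the 4 was Il2ra, which passed the filter only through the libraries with LPS. The counts were 3 and 3 with quantile normalization, 3 and 2 with equal library sums, and 3 and 2 of 8 tested without number 1. Il13ra1, the partner of Il4ra in the IL-13 receptor, rose by 1.60 ± 0.08, Il2rg by 1.82 ± 0.18, and Il7r fell by 1.18 ± 0.10 (SE, n = 3 per group).

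Genes known as induced by IL-10 or STAT3 numbered 12, and LPS called 12 higher, beside 31.4% of all genes, with a median of 1.51 on the log2 scale. With quantile normalization 9 were called higher and 1, Mcl1, lower, and with equal library sums 6 were called higher and none lower. Without number 1 it was 10 higher and none lower. The naming of Mcl1 came after its value was seen. The 12 genes include Junb at 2.48 ± 0.10, Il1rn, the IL-1 receptor antagonist, at 3.43 ± 0.20 and Cebpd at 1.59 ± 0.17. In oxLDL+LPS against LPS, 10 of the 12 were lower and the unblocked fit called none. The blocked fit, with 8.74% of all genes called lower and 0 genes called without number 3, called 8 lower, with Il1rn at -0.86, Junb at -0.54 and Nfil3 at -0.59. Of 4 genes known as targets of STAT5, LPS called 2 higher, beside 31.4% of all genes, also without number 1. The direction in which STAT5 acts on each of the 4 was not considered. Ccnd2, a cyclin, was at 53 to 79 in Control, 5890, 7637 and 11990 in LPS and 1657, 5346 and 3193 in oxLDL+LPS, a log2 difference of 6.99 ± 0.26 without oxLDL and 5.40 ± 0.41 with it. Bcl6, a repressor, was at 2140, 417 and 972 in LPS and at 2046, 612 and 2224 in oxLDL+LPS, and was called higher by 0.56 with the block, against 4.42% of all genes.

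Of the 9 tested genes known as induced by IL-4 and STAT6, LPS called 3 higher and 2 lower, shares near those of all genes. Without number 1 it called none of 7 tested. Ccl22 at 7.11 ± 0.60 and Ccl24 at 3.37 ± 0.55 on the log2 scale were called higher with all 3 numbers, and Egr2 at -0.53 ± 0.21 lower. Ccl24 passed the filter only through the libraries with LPS. Of 9 other inhibitors of JAK-STAT signaling, 5 were called higher and 1 lower by LPS, beside 31.4% and 30.3% of all genes. The counts were 3 and 3 with quantile normalization, 3 and 4 with equal library sums, and 4 and 1 without number 1. They include the phosphatases Ptpn6 at 1.65 ± 0.12, Ptpn2 at 1.63 ± 0.11 and Ptpn11 at 0.73 ± 0.09 (SE, n = 3 per group). Over the 12 lists of 97 genes, LPS against Control called 52 higher and 13 lower of 86 tested, beside 31.4% and 30.3% of all genes. The counts were 42 and 20 with quantile normalization, where 40.2% of all called genes were higher. They were 35 and 23 with equal library sums, where 23.5% of all called genes were higher. Without number 1 LPS called 39 higher and 8 lower of 81 tested. oxLDL+LPS against LPS called none without the block. With the block it called 1 higher and 31 lower of 88, beside 4.42% and 8.74% of all genes. The lists were written with earlier results known, so these counts are a description.

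Il10 and Cish differed in which culture had most, although both rose with LPS. Il10 was highest in number 1 and lowest in number 2 in both LPS groups, and Cish was highest in number 2 in both. Of 11 regulators of Il10 LPS called 7 higher and 4 lower, beside 31.4% and 30.3% of all genes. The counts were 4 and 3 with quantile normalization, 3 and 5 with equal library sums, and 4 and 3 without number 1. Maf, a factor known to drive Il10, was called at 0.98 on the log2 scale but not with quantile normalization (0.48, limma, adjusted p = 0.22) or equal library sums (0.50, adjusted p = 0.22). It was at 6512, 2510 and 3990 in LPS and 3633, 2469 and 2119 in oxLDL+LPS. Maf was highest in number 1, like Il10. Osm, a gp130 cytokine, was at 114, 602 and 342 in LPS and 75, 267 and 111 in oxLDL+LPS, and Socs2 was at 84, 284 and 137 and at 37, 173 and 29. Csf2, which was at 0 in the 6 libraries without LPS, was at 2, 43 and 20 in LPS and 1, 9 and 0 in oxLDL+LPS. These 3 genes were highest in number 2, like Cish. Osm, Socs2 and Csf2 were set beside Cish, and Maf, Sbno2 and Bcl3 beside Il10, after their values were seen. The fibroblast gene Col1a1 was highest in number 1 too, at 12012, 5517 and 1965 in LPS and 6800, 5833 and 1782 in oxLDL+LPS, and its part in the order of Il10 was not tested.

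**Figure D5:**
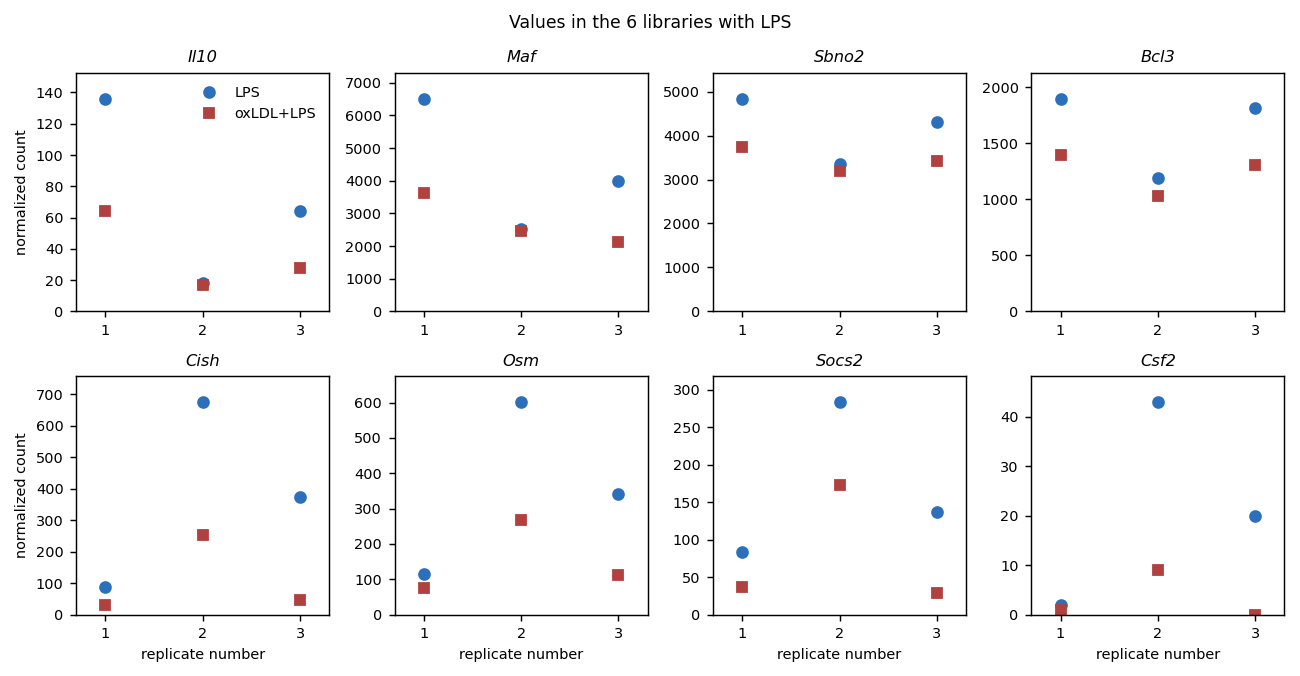
Normalized counts in the 3 LPS libraries (circles) and the 3 oxLDL+LPS libraries (squares) by replicate number, for Il10 with Maf, Sbno2 and Bcl3 (top) and Cish with Osm, Socs2 and Csf2 (bottom). Il10 had its highest value in number 1, at 136 and 64, and Cish in number 2, at 676 and 253.

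The genes whose pattern was most like each listed gene were found by Pearson's r of log2(value + 1) over the 12 libraries, among genes with a mean of at least 100. The r is a description, because the libraries share pools and most of the variation is the step between LPS and no LPS. Il10 was most like Sbno2 (r = 0.970), a repressor induced by IL-10, and Usp53 (r = 0.968). Socs1 was most like Tnfaip3 (r = 0.998), the NF-κB inhibitor A20, which was at 843 to 974 in Control, 18506 to 28578 in LPS and 9607 to 15314 in oxLDL+LPS, and like Otud5 (r = 0.997). Cish was most like Plaur (r = 0.993), the urokinase receptor, and Cd200 (r = 0.982). Pim1 was most like Sav1 (r = 0.998) and Ptgs2 (r = 0.997), the inducible cyclooxygenase, which was at 50 to 69 in Control, 15114 to 61849 in LPS and 2888 to 21485 in oxLDL+LPS. For Socs3 they were H2afy (r = 0.997) and Rnf19b (r = 0.996), for Stat3 Ppp1r15b (r = 0.996) and Prkx (r = 0.995), and for Stat5a Appl1 (r = 0.993) and Rdx (r = 0.992). Il4ra was most like Prkce (r = 0.989) and Abca1 (r = 0.986), Il10ra like Tmsb4x (r = 0.981) and Dnajb1 (r = 0.975), and Il6ra like Tmem64 (r = 0.993) and Parp1 (r = 0.992). Tmem64 was at 558 to 668 in Control and at 229 to 280 in LPS.

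On GRCm38 the remaining genes lie at chr1:131019845-131024974 (Il10, plus strand), chr9:45253837-45269149 (Il10ra, minus), chr3:89864059-89913196 (Il6ra, minus), chr7:125552120-125579474 (Il4ra, plus), chr16:10782240-10785536 (Socs1, minus), chr11:117966079-117970047 (Socs3, minus), chr9:107296026-107302784 (Cish, plus) and chr17:29490753-29496112 (Pim1, plus). In the annotation, exons of Il6ra, Il4ra, Cish and Pim1 overlap exons of antisense genes or a pseudogene on the other strand, over at most 242, 571, 479 and 488 bases per overlapping gene, and reads there are uncertain for the same reason.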

How the data were processed

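Poly(A) RNA of 12 PMφ cultures was sequenced in the study as paired reads of 150 bp. Trimming by the authors used Trimmomatic 0.32, alignment used STAR 2.5.1b on the mouse build GRCm38, and featureCounts gave the exonic reads of each GENCODE gene. The deposited signal is these counts divided by 1 factor per library (0.7078 to 1.3097, read from the spacing of the values) and rounded, so tests for raw counts were not used. Implied reads were 16.7 to 26.2 M per library. Groups were compared with limma 3.58.1 in R 4.3.3, with a variance trend, on log2(value + 1), over genes at 10 or more in at least 3 libraries compared. A gene was called at a Benjamini-Hochberg adjusted p below 0.1, and all p are two-sided. The unblocked fit and the fit with the replicate block were run on simulated data. Any pool effect there was shared by all groups, unlike number 1 in these libraries. The genes changed there had higher Control means than Il10, Cish and Socs1. The block within each LPS state was not run on simulated data. Fold changes on this scale understate low genes.

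The 10 genes and the 12 further lists (97 genes) were chosen with earlier results of these data known. Named were the 10 genes, family members, up to 3 called genes per list and comparison with the smallest adjusted p, and the 2 genes most like each listed gene. Others are said to be chosen later. Libraries of 1 number deviated together from their group means (r = 0.60 to 0.66 between Control and oxLDL, 0.57 to 0.60 between LPS and oxLDL+LPS, 0.23 to 0.57 across LPS states, over 13482 genes), so the replicate block is given where it changes a call. Positions and exon lengths are from GENCODE M21 and promoters from RefSeq. Results for 1 gene are not reported here.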

Additional observations from a re-analysis of the deposited data

Results flagged for a closer look

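For 6 of the 10 genes the interaction of oxLDL and LPS was called in limma with a block on replicate number within each LPS state. That fit called 0.408% of all genes higher and 0.682% lower. The block was chosen after the data were seen and the 10 genes with earlier results known, so the count is a description. The 6 were Il6ra at 0.78, Stat5a at -0.59, Socs1 at -1.43, Socs3 at -1.33, Cish at -1.86 and Pim1 at -0.58 on the log2 scale. Without the block, and with a block shared by both LPS states, none of the 10 genes was called.

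Il10, at -1.78, was set apart because oxLDL went with higher values in all 3 numbers without LPS and lower values in all 3 with LPS. Il6ra and Socs1 also moved in opposite directions in all 3 numbers, Il6ra lower without LPS and higher with it, and Socs1 the reverse. The share of all genes that moved in this way was not computed. Without LPS, Socs1 stood at 11 to 23, and Il10 in number 1 at 4 in Control and 5 with oxLDL. The interaction did not call Il10 in the unblocked fit or the fit with the block within each LPS state, and its values without LPS were 1 to 8. Leaving out number 1 or number 3 ended the 6 calls, and leaving out number 2 gave 8, with Il10 among them.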

How the results depend on the processing

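In both LPS comparisons the 10 genes kept their direction under each alternative in which they passed the filter, which was 20 for 8 genes, 17 for Cish and 12 for Il10. The calls were kept too, apart from Il10ra with equal library sums (both comparisons) and with quantile normalization (with oxLDL), as given above. The share of higher genes among those called against Control was 50.9%, but 40.2% with quantile normalization and 23.5% with equal library sums, where the median of all genes moved to -0.14 and -0.48 on the log2 scale. In PMφs with oxLDL the share was 51.7%, 39.9% and 23.7%, with medians of -0.13 and -0.40. Equal library sums were chosen after the data were seen.

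Between oxLDL and Control, the replicate block called 601 genes, and leaving out libraries or numbers gave 0 to 1285. Between oxLDL+LPS and LPS, the block called 1682 genes and a fit of all 12 libraries 29, among them Socs3, and leaving out libraries or numbers gave 0 to 2945. The interaction called 147 genes with the block within each LPS state, and 0 to 763 when libraries or numbers were left out. Without oxLDL+LPS replicate 2, the unblocked fits called 91 genes for oxLDL+LPS against LPS and 6 for the interaction. The block changed no other call among the 10 genes. Differences between oxLDL and Control near 0 changed sign: leaving out libraries, Il10ra ran from -0.16 to 0.063, Il4ra from -0.16 to 0.072, Socs3 from -0.11 to 0.33, Pim1 from -0.050 to 0.052 and Stat3 from -0.11 to 0.021, and with quantile normalization Il4ra was at 0.0059. The cause was not tested. Leaving out a number under the block leaves 1 residual degree of freedom within a comparison of 2 groups. The 1285 and 2945 genes come from such fits, in which limma took every gene's spread from the trend. Il10 and Cish, at 1 to 14 in the libraries without LPS, are limited by depth.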
